A study of Mus musculus with 8 samples.

Results

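The genes described here are 42 genes of liver carbohydrate metabolism, chosen by name: enzymes of glycolysis and gluconeogenesis, glycogen enzymes and their phosphatase targeting subunits, glucose transporters, the fructose kinase Khk, and 4 regulators of these pathways in the response to insulin and fasting. They were found on the arrays through the RefSeq accessions of their probes. All 42 were present among the 22911 gene symbols on the array, with 69 probes, and 67 of these probes passed the filter on dim signals (scored well above background by the scanner's software on each array of 1 group or more), so that every one of the 42 genes could be tested among 26551 genes and unnamed transcripts. Measured values played no part in which genes were taken by that rule, although the list was drawn up with earlier results of these arrays known.

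RNA of whole mouse liver was measured on 1-colour arrays in 4 groups of 2 arrays each, 8 in all: wild-type and knockout males, and wild-type and knockout females. The knockout is described as a Bcl-6 deficiency specific to the liver, and the mice were 10 to 11 weeks old. Bcl6 encodes a transcriptional repressor, and the series asks what it does to the difference between male and female liver. The sources used here do not give the strain, the promoter that drives the deletion, whether the wild-type mice carried unrecombined alleles, the feeding state or the hour of dissection. Nor is it stated beyond the replicate names that each array came from its own animal, so the p-values measure the spread between these samples.

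On each array 33677 to 36459 of 59305 spots other than controls read well above background and 0 were saturated. All arrays shared 1 slide and 1 scan, with the females in the first row and the males in the second, so that row and sex cannot be told apart. The Bcl6 probe itself did not read lower in arrays with the knockout label: knockout minus wild type was 0.83 ± 1.06 (SE, log2, limma adjusted p = 0.67) in males and 1.11 ± 1.06 (adjusted p = 0.555) in females. The sources used here do not say where that probe lies relative to the deleted part, so every genotype below is the one on the label. All 15 hepatocyte markers were well above background, as were markers of endothelial cells and macrophages, as whole liver holds several cell types. In such bulk samples fewer cells of a type and less RNA per cell cannot be told apart.

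Glycolysis breaks glucose down to pyruvate, and gluconeogenesis builds glucose from pyruvate, lactate and amino acids, through mostly shared enzymes and a few one-way steps at which the direction is set. The liver uses both: it stores glucose as glycogen after a meal and releases glucose during fasting, by cutting the phosphate from glucose 6-phosphate inside the endoplasmic reticulum. Insulin favours storage and glycolysis, and glucagon and fasting favour release, partly through the level of fructose 2,6-bisphosphate, a small sugar phosphate that switches on phosphofructokinase and switches off fructose bisphosphatase.

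In the arrays labelled knockout the genes that changed were nearly all lower than in wild type. In males 7 genes were lower and 1 was higher, 8 of 42, where 10.6% of all genes tested passed the same threshold (limma, Benjamini-Hochberg adjusted p under 0.05). Of all genes tested 4.52% were lower and 6.08% higher. In females 7 of the 42 were lower and 0 higher (18 had an unadjusted p under 0.05), where 5.88% of all genes passed, 2.39% lower and 3.5% higher. The same 5 genes were lower in both sexes: Pfkfb2, Pfkfb3, Slc37a4, Khk and Ppp1r3b. Pck2 and Pygl were lower and Pkm was higher in males, and Gbe1 and Foxo1 were lower in females. Below, levels are log2 of the processed signal after each array's 75th percentile is set to 0, so 1 unit is a doubling, and each difference is knockout minus wild type with its standard error.

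**Figure D1:**
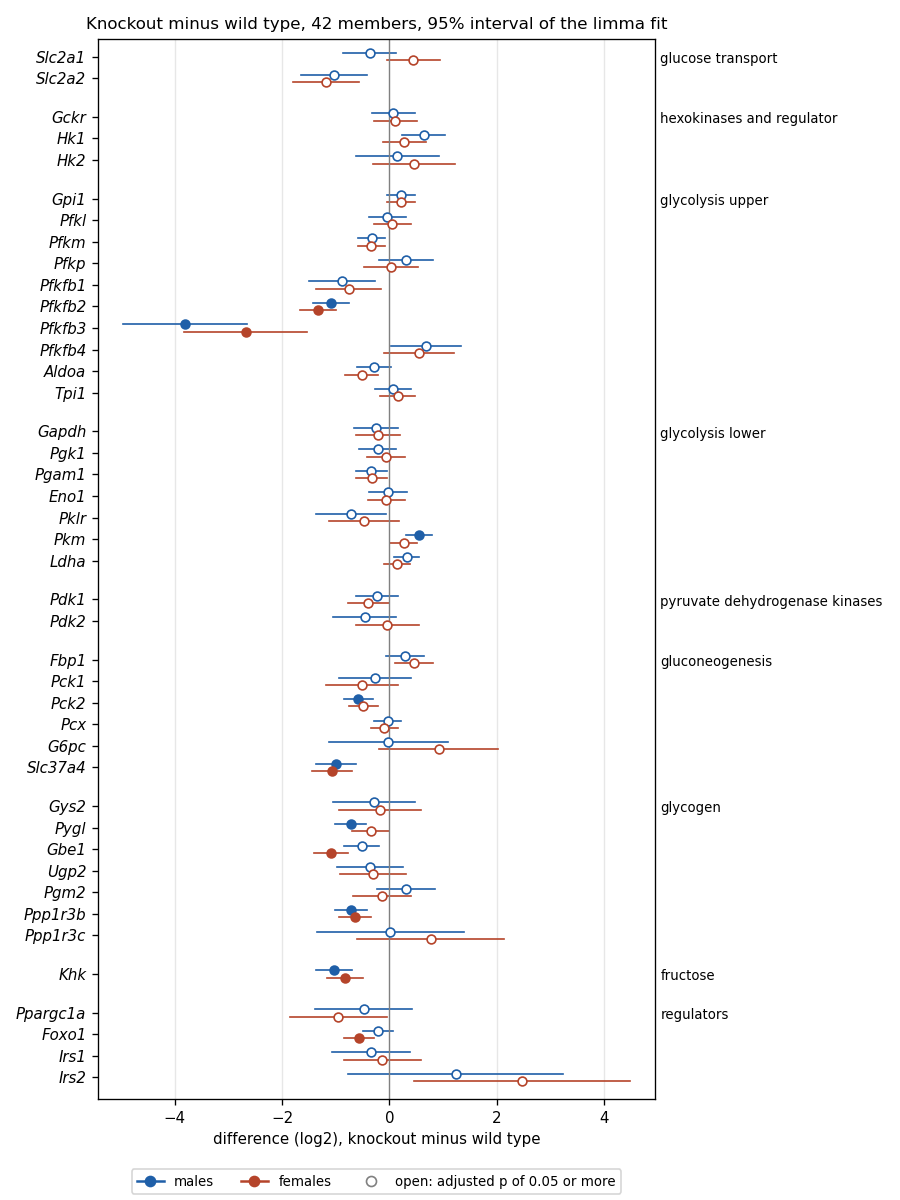
Knockout minus wild type on the log2 scale for the 42 genes, ordered by branch of the pathway, with the 95% interval of the limma fit for males and females. Filled points passed the adjusted threshold and open points did not. The 2 lowest points are both Pfkfb3, at -3.81 in males and -2.68 in females, and most other points lie between -1 and 1.

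The median difference over the 42 genes was -0.26 in males and -0.15 in females, beside -0.01 and 0.01 over all genes tested. The male and female differences come from different arrays. Of the 42 genes 38 had the same sign in both, and the correlation across the 42 genes was 0.858, given as a description since genes are not replicates. No like values over all genes are given beside these. Pfkfb3 (-3.81 and -2.68) and Irs2 (1.23 and 2.46) lay far from 0 in both sexes and weigh on the correlation. With 2 arrays a group the number of genes past the threshold depended on single arrays. In males it was 3 and 0 without male knockout replicate 1 and 2, 4 and 2 without male wild-type replicate 1 and 2, 9 without either female knockout array, and 12 without either female wild-type array. In females it was 2 without either female knockout array, 6 and 7 without female wild-type replicate 1 and 2, 3 without either male knockout array and 4 without either male wild-type array. In a fit of the 2 female groups alone none of the 7 female calls passed (adjusted p 0.0627 to 0.15). In that fit 363 of all 26551 genes tested passed, beside 1562 in the fit of all arrays, so few calls were left among all genes too. No difference named below as passed turned its sign in any of these fits. The number of all genes past the threshold moved as well. In males it fell without any 1 male array and rose without either female wild-type array, as for the 42. Without either female knockout array it fell, while that of the 42 rose. In females it fell without any 1 array other than female wild-type replicate 1.

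The largest differences lay in the family of bifunctional enzymes that make and remove fructose 2,6-bisphosphate. Pfkfb3, the isoform with the strongest kinase activity, had levels of 3.01 and 3.04 in the 2 male wild-type arrays and -0.73 and -0.84 in the 2 male knockout arrays. Female wild type gave 0.87 and 2.45, and female knockout gave -0.88 and -1.15. All 4 knockout arrays lay below all 4 wild-type arrays, and the female wild-type arrays stood 1.58 apart from each other. The difference was -3.81 ± 0.47 in males, 14.0-fold (adjusted p = 0.00727), and -2.68 ± 0.47 in females, 6.41-fold (adjusted p = 0.0312). A second Pfkfb3 probe gave -4.10 and -2.87, but it was much dimmer, with a mean level of -4.92 over all arrays. Whether this probe read well above background on the knockout arrays is not given here, so its differences may be only bounds. The male call was lost only without male knockout replicate 2 (adjusted p = 0.0517), and the female call was lost without either female knockout array (0.124 and 0.125), either male knockout array (0.0699) or either male wild-type array (0.0607).

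Pfkfb2, the heart-type isoform, which insulin signalling can activate, read 1.13 and 1.08 in male wild type and -0.00 and 0.04 in male knockout. In females it read 1.19 and 1.47 in wild type and -0.11 and 0.12 in knockout. Knockout and wild type did not overlap in either sex. The difference was -1.09 ± 0.14 in males (2.12-fold, adjusted p = 0.00781) and -1.33 ± 0.14 in females (2.51-fold, adjusted p = 0.00653). Its other probes, which carry accessions of other transcripts, were lower as well, at -1.36 and -0.63 in males and -1.85 and -0.72 in females. The female call held whichever array was left out, with a highest adjusted p of 0.0446, and the male call was lost without male knockout replicate 1 (0.0564) or 2 (0.0545).

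Pfkfb1, the isoform typical of liver, read 3.30 and 3.26 in male wild type, 2.28 and 2.50 in male knockout, 2.68 and 1.98 in female wild type and 1.74 and 1.39 in female knockout. Knockout lay below wild type within each sex, and the male knockout arrays overlapped the female wild-type ones. The differences, -0.89 ± 0.25 in males (adjusted p = 0.0804) and -0.76 ± 0.25 in females (adjusted p = 0.134), did not pass the threshold. Pfkfb4 was the one isoform of the 4 with a positive difference, 0.68 ± 0.27 in males (adjusted p = 0.171) and 0.55 ± 0.27 in females (adjusted p = 0.264), neither of which passed.

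**Figure D2:**
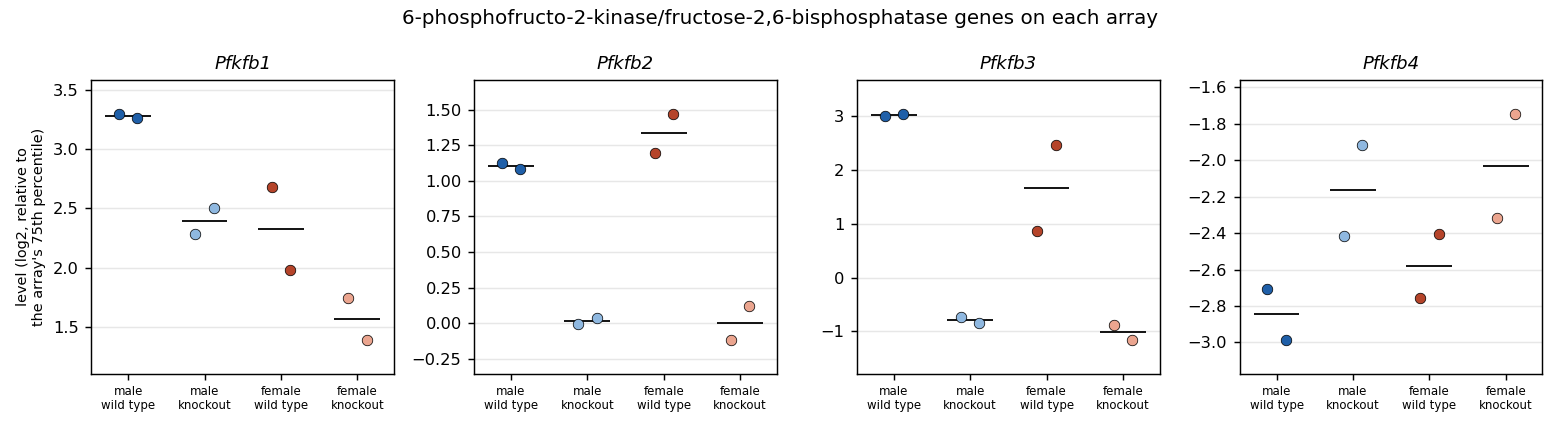
Level of the 4 Pfkfb isoforms on each of the 8 arrays, as log2 relative to the array's 75th percentile, by group, with the group mean as a line. Pfkfb3 and Pfkfb2 sit lower in both knockout groups than in both wild-type groups, and the 2 female wild-type points of Pfkfb3 lie 1.58 apart.

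For the 5 genes lower in both sexes the promoter was read from RefSeq's table (GRCm38.p6) as the 250 bases before each annotated start; 4 of them had an entry, and of the 42 genes 40 did, with 63 windows. The following 6 motifs were searched on both strands: CACGTG, the E-box read by basic helix-loop-helix factors, among them the carbohydrate response and clock factors; TTCNNNGAA, the STAT5 type; TTCCNNGAA and TTCCTAGAA, the Bcl6 type and themselves cases of the STAT5 type; TGACGTCA, the cyclic AMP response element; and GTAAACA, the FOXO type. The windows below, printed 5′ to 3′ on the gene's strand with CACGTG in capitals, are shown because these genes moved together: the window of 1 of 3 annotated starts of Pfkfb2, the one with CACGTG (chr1:130715822-130716071, minus strand), the window of Khk (chr5:30921309-30921558, plus strand), that of 1 of 3 starts of Slc37a4 (chr9:44396696-44396945, plus strand), and both windows of Pfkfb3 (upstream start chr2:11553930-11554179, downstream start chr2:11502091-11502340, minus strand).
Pfkfb3 downstream start: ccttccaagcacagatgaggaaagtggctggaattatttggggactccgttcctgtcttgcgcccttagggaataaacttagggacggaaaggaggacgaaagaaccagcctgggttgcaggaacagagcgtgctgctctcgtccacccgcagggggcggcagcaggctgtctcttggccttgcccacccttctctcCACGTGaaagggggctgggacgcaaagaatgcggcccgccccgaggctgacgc
Pfkfb3 upstream start: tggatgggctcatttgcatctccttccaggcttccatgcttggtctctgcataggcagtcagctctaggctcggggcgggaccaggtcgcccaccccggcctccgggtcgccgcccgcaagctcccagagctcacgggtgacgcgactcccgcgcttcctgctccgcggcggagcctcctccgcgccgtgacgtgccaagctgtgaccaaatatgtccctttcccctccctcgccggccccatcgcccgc
Pfkfb2: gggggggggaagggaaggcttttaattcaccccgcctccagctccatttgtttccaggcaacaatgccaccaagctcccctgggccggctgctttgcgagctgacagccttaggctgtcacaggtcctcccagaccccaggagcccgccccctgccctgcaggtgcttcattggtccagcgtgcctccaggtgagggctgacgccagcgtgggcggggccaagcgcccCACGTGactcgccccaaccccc
Khk: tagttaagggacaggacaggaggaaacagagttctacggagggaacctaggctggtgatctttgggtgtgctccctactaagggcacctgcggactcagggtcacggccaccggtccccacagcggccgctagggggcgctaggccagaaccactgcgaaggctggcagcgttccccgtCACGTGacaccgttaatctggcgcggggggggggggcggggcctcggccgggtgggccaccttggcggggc
Slc37a4: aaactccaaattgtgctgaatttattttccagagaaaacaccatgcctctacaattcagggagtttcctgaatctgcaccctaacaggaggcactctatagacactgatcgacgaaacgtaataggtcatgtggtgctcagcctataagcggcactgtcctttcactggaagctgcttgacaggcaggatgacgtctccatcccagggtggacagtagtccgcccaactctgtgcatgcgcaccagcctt

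The E-box lies at position -22 from the start in the printed window of Pfkfb2, at -53 in the downstream window of Pfkfb3 and at -71 in Khk. The other 2 Pfkfb2 windows, the upstream window of Pfkfb3 and all 3 Slc37a4 windows hold none. It was present in 10 of the 63 windows (15.9%), beside 6.02% of all 32851 windows of the table; windows of 1 gene can overlap. The other genes with it were Irs1, Irs2, Ldha, Pdk2, Pfkm, Pcx and Ppp1r3c, none of which passed the threshold in either sex. TTCNNNGAA was in 1 window (1.59%, beside 7.02% of all), a Pfkm window that also holds TTCCNNGAA on its other strand (1.59% beside 4.06%). TTCCTAGAA (0.347% of all windows) and GTAAACA (3.17% of all) were in 0 of the 63, and TGACGTCA was in 1, that of Ldha (1.59% beside 1.55%). These are matches of letters and not measured binding.

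The last step of glucose release, in which glucose 6-phosphate enters the endoplasmic reticulum, is cleaved and leaves the cell, had 1 member that passed, in both sexes. Slc37a4, the transporter that carries glucose 6-phosphate into the endoplasmic reticulum, read 5.91 and 5.99 in male wild type, 5.13 and 4.77 in male knockout, 6.03 and 5.80 in female wild type and 4.89 and 4.80 in female knockout. Every knockout array lay below every wild-type array. It fell in males (-1.002 ± 0.15, adjusted p = 0.0143) and in females, 2.10-fold (-1.07 ± 0.15, adjusted p = 0.0178). The male call ended without replicate 1 (0.0521) or 2 (0.0752) of male wild type or replicate 2 of male knockout (0.0731), and the female call without either female knockout array (0.0871 and 0.0873) or female wild-type replicate 1 (0.0504).

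G6pc, the catalytic subunit of glucose 6-phosphatase, did not pass in either sex. It read 6.23 and 5.65 in male wild type and 5.95 and 5.88 in male knockout, a difference of -0.02 ± 0.46 (95% interval -1.13 to 1.09, adjusted p = 0.981). In females it read 6.27 and 4.89 in wild type and 6.28 and 6.71 in knockout, 0.92 ± 0.46 (interval -0.19 to 2.03, adjusted p = 0.272). Female wild-type replicate 2 is the low array here, and the female difference depended on it. Without replicate 1 the difference was 1.61. Without replicate 2 the wild-type value left was 6.27, beside 6.28 and 6.71 in knockout.

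Slc2a2, the transporter GLUT2 through which glucose crosses the hepatocyte membrane, read 1.58 and 1.73 in male wild type, 0.85 and 0.40 in male knockout, 2.32 and 1.65 in female wild type and 0.82 and 0.79 in female knockout. The knockout arrays all lay below the wild-type ones, and the differences, -1.03 ± 0.25 in males (adjusted p = 0.0543) and -1.18 ± 0.25 in females (adjusted p = 0.052), fell just short of the threshold. Both passed when each array was centred on the median of the kept probes (0.0488 and 0.0486) or corrected for background by normexp (0.0184 and 0.0127). Slc2a1, the transporter GLUT1 found in most cells, had differences of opposite sign: it read 0.90 and 0.47 in male wild type against 0.41 and 0.21 in male knockout, and 0.24 and -0.08 in female wild type against 0.37 and 0.68 in female knockout. Its interaction, the male difference minus the female one, was -0.82 ± 0.29 (adjusted p = 0.523) and did not pass.

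Of the gluconeogenic enzymes upstream of these steps Pck2 passed, in males, and Pck1, Pcx and Fbp1 passed in neither sex. Pck1, the cytosolic phosphoenolpyruvate carboxykinase and a classical gene of fasting, read 7.92 and 7.51 in male wild type, 7.54 and 7.38 in male knockout, 8.13 and 7.59 in female wild type and 7.65 and 7.07 in female knockout. The genotypes overlapped in both sexes, and the differences were -0.26 ± 0.27 (adjusted p = 0.599) and -0.50 ± 0.27 (adjusted p = 0.311). Pck2, its mitochondrial counterpart, read -0.78 and -0.65 in male wild type and -1.33 and -1.26 in male knockout, a fall of 1.49-fold (-0.58 ± 0.11, adjusted p = 0.0273). In females it read -0.55 and -0.61 in wild type and -1.15 and -0.97 in knockout (-0.49 ± 0.11, adjusted p = 0.06), so the knockout arrays of both sexes lay below the wild-type ones. Leaving out any 1 male array ended the male Pck2 call (0.0643 to 0.142).

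Pcx, the pyruvate carboxylase that opens gluconeogenesis, had the narrowest range of this branch: 6.27 and 6.23 in male wild type, 6.29 and 6.15 in male knockout, 6.38 and 6.26 in female wild type and 6.25 and 6.20 in female knockout. Its differences were -0.03 (95% interval -0.28 to 0.22, adjusted p = 0.892) and -0.09 (interval -0.34 to 0.16, adjusted p = 0.616). Fbp1, the fructose bisphosphatase, read 8.85 and 8.93 in male wild type, 9.29 and 9.07 in male knockout, 9.07 and 8.77 in female wild type and 9.44 and 9.30 in female knockout. The knockout arrays of each sex lay above its wild-type ones, by 0.29 ± 0.14 (adjusted p = 0.262) and 0.45 ± 0.14 (adjusted p = 0.127), and neither passed. With normexp the female difference of Fbp1 passed (0.45, adjusted p = 0.0382).

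Khk, the ketohexokinase that starts fructose breakdown, was lower in both sexes. It read 7.52 and 7.65 in male wild type, 6.62 and 6.49 in male knockout, 7.56 and 7.24 in female wild type and 6.56 and 6.59 in female knockout, with no overlap between the genotypes. The difference was -1.03 ± 0.14 in males (2.04-fold, adjusted p = 0.00908) and -0.83 ± 0.14 in females (1.77-fold, adjusted p = 0.0261). The male call was lost without replicate 2 of male wild type (0.056) or of male knockout (0.0676), and the female call without either female knockout array (0.128 and 0.101), female wild-type replicate 1 (0.0505) or either male knockout array (0.0616).

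Of the 7 glycogen genes 2 fell in males and 2 in females, with 1 in common. Ppp1r3b, the liver subunit that brings protein phosphatase 1 to glycogen, read 5.81 and 5.71 in male wild type, 5.09 and 5.004 in male knockout, 5.37 and 5.62 in female wild type and 4.83 and 4.88 in female knockout. The genotypes did not overlap in either sex. The difference was -0.72 ± 0.12 in males (1.65-fold, adjusted p = 0.0182) and -0.64 ± 0.12 in females (1.56-fold, adjusted p = 0.0364). Leaving out any 1 male array ended the male call (0.0688 to 0.114), and the female call without any 1 array other than female wild-type replicate 1 (0.063 to 0.168).

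Pygl, the liver glycogen phosphorylase, read 6.73 and 6.82 in male wild type and 6.12 and 5.99 in male knockout, a fall of 1.65-fold (-0.72 ± 0.12, adjusted p = 0.0254). In females 1 wild-type spot was marked as an outlier and left out; the other wild-type array read 6.33 and the knockout arrays 5.90 and 6.06 (-0.35 ± 0.14, adjusted p = 0.217). Leaving out any 1 male array ended the male Pygl call (0.0763 to 0.142), and so did the authors' deposited values (0.223). Gbe1, the branching enzyme, read 4.08 and 4.09 in male wild type, 3.50 and 3.64 in male knockout, 4.24 and 4.03 in female wild type and 2.94 and 3.17 in female knockout. It was 2.12-fold lower in females (-1.09 ± 0.13, adjusted p = 0.0107), a call lost without female knockout replicate 1 (0.0639) and in the fit of the 2 female groups alone (0.0779), and -0.52 ± 0.13 in males did not pass (adjusted p = 0.0599). The interaction for Gbe1 was 0.57 ± 0.19 (adjusted p = 0.474), so a difference between the sexes in this change was not shown.

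Gys2, the liver glycogen synthase, read 4.80 and 5.17 in male wild type, 4.97 and 4.43 in male knockout, 5.10 and 4.86 in female wild type and 5.20 and 4.41 in female knockout. The groups overlapped, and the differences were -0.29 ± 0.32 (adjusted p = 0.617) and -0.17 ± 0.32 (adjusted p = 0.771). Ugp2, which makes the glucose donor for glycogen, stood at -0.36 ± 0.25 in males and -0.30 ± 0.25 in females, and neither passed. Ppp1r3c, another phosphatase targeting subunit, read 1.71 and 3.57 in the 2 female knockout arrays and between 1.84 and 2.49 in the other 6. The probe of the phosphoglucomutase that the RefSeq list names Pgm2 (with Pgm1 as a synonym) was not well above background on either male wild-type array, so its level there is only a bound and no fold is given.

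**Figure D3:**
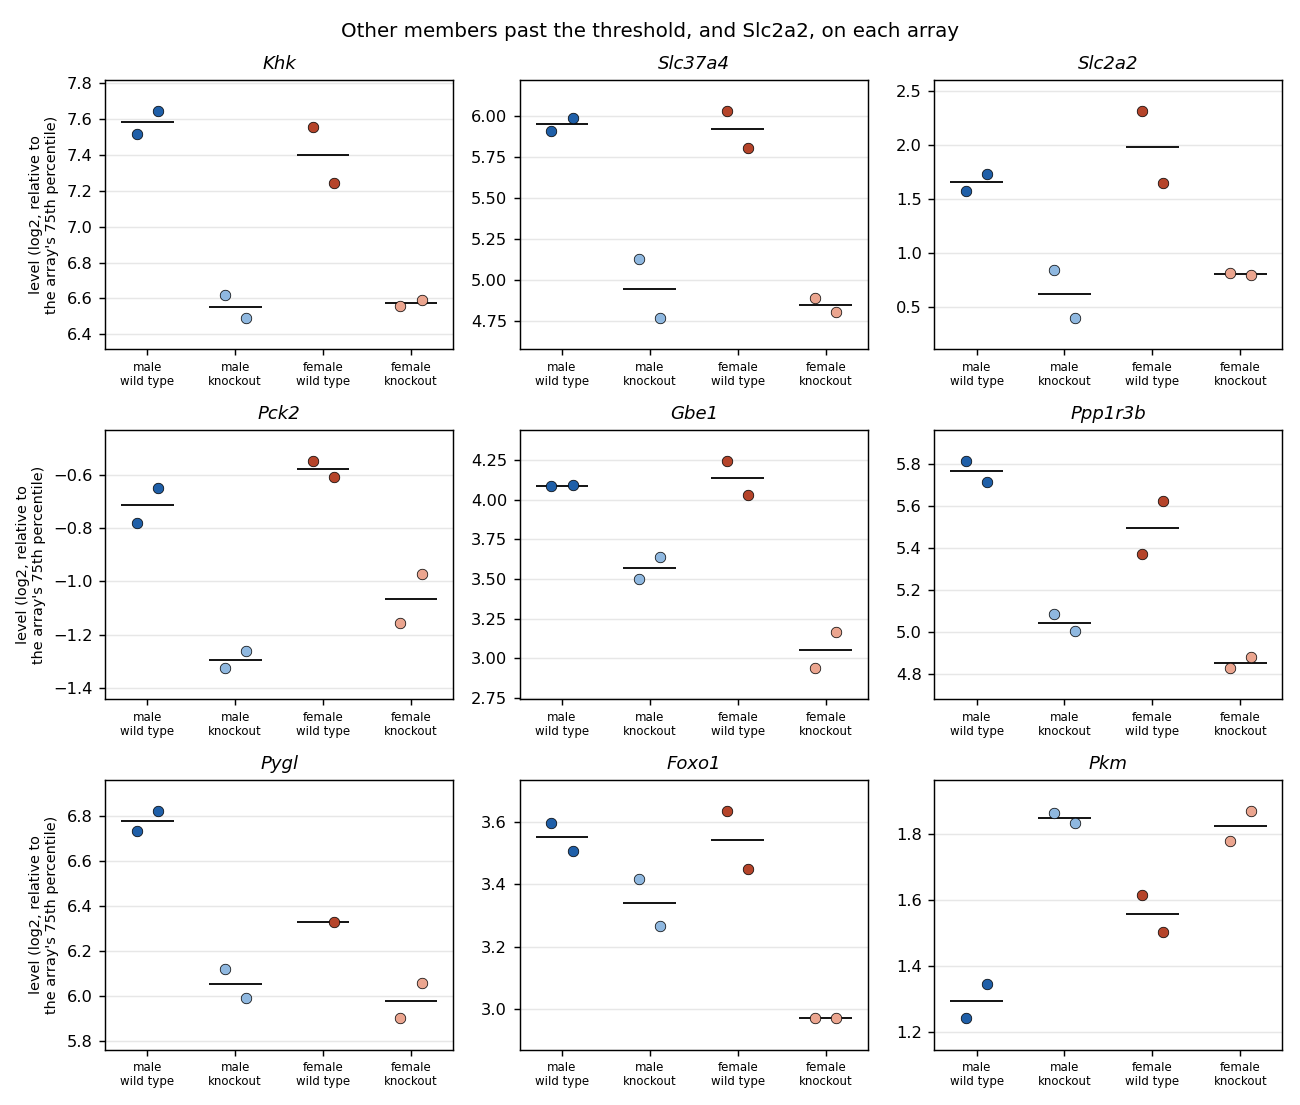
Levels on each of the 8 arrays, as log2 relative to the array's 75th percentile, for genes past the threshold in at least 1 sex and for Slc2a2, by group with the group mean as a line. Slc2a2 did not pass the threshold, at adjusted p = 0.0543 in males and 0.052 in females, and Pygl has 1 female wild-type point because the other spot was left out.

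The central enzymes of glycolysis, from the isomerase to lactate dehydrogenase, moved less. Gpi1, Pfkl, Pfkm, Pfkp, Aldoa, Tpi1, Gapdh, Pgk1, Pgam1, Eno1 and Ldha had differences between -0.34 (Pgam1) and 0.32 (Ldha) in males and between -0.52 (Aldoa) and 0.22 (Gpi1) in females, and 0 of these 11 passed in either sex. Aldoa, an aldolase, came nearest in females (-0.52 ± 0.13, adjusted p = 0.0751). Pfkm, the muscle-type phosphofructokinase, gave -0.33 ± 0.10 in both sexes (adjusted p = 0.0998 in males and 0.116 in females), beside -0.04 in males and 0.05 in females for the liver-type Pfkl. Gapdh, often used as a reference gene, gave -0.26 ± 0.17 in males and -0.21 ± 0.17 in females with the probe used, and its other 5 probes gave -0.18 to -0.40 and -0.05 to -0.19. Gapdh, Eno1, Ldha, Pgk1 and Tpi1 have near-identical processed copies in the genome, so their probes may read more than 1 transcript.

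Of the pyruvate kinases, Pkm, the form of most tissues other than liver, read 1.24 and 1.35 in male wild type, 1.86 and 1.83 in male knockout, 1.62 and 1.504 in female wild type and 1.78 and 1.87 in female knockout. It was the one gene of the 42 that rose, by 0.55 ± 0.10 in males (1.47-fold, adjusted p = 0.0242), and it stood at 0.27 ± 0.10 in females (adjusted p = 0.176). The male call ended when any 1 male array was left out (0.0751 to 0.13) and with the mean of its 2 probes (0.42, adjusted p = 0.0724). Pklr, the liver form, read -0.30 and 0.46 in male wild type, -0.57 and -0.71 in male knockout, -0.52 and -0.17 in female wild type and -0.96 and -0.67 in female knockout. Its knockout arrays lay below its wild-type arrays within each sex, with differences of -0.72 ± 0.27 (adjusted p = 0.156) and -0.47 ± 0.27 (adjusted p = 0.333) that did not pass.

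Gckr, the inhibitory partner of the liver's main glucose-phosphorylating enzyme, read 6.42 and 6.51 in male wild type, 6.57 and 6.51 in male knockout, 6.77 and 6.31 in female wild type and 6.71 and 6.59 in female knockout. The groups overlapped, and the differences were 0.07 (95% interval -0.33 to 0.48) and 0.11 (interval -0.29 to 0.51). Hk1, a hexokinase of most tissues, stood at 0.64 ± 0.16 in males (adjusted p = 0.0633) and 0.28 ± 0.16 in females (adjusted p = 0.35); its second, dimmer probe gave -0.52 and 0.13, so the 2 probes disagree in males. Hk2, the insulin-sensitive hexokinase of muscle and fat, was dim on every array and not past the threshold, at 0.14 ± 0.32 and 0.46 ± 0.32.

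Summed levels of some marker lists of cells other than hepatocytes differed between the genotypes without overlap, and those of others overlapped. The counts of single markers past the threshold stand beside the shares of all genes tested. In males 6.08% of all were higher and 4.52% lower, and in females 3.5% were higher and 2.39% lower. The summed level of 12 endothelial markers, on the linear scale with each array's 75th percentile as 1, was 89.8 to 97.2 in the knockout arrays and 64.1 to 83.8 in the wild-type ones, and 3 of the 12 rose in males and 1 in females. For the 9 tested of 10 B and plasma cell markers it was 3.28 to 3.45 against 1.99 to 2.31, with 3 higher in males and 1 in females, and Tnfrsf17 well above background on no array. For 11 stellate cell markers it was 72.1 to 89.5 against 53.2 to 83.7 (3 higher in males, 1 lower in females), and for 14 macrophage markers 115 to 141 against 105 to 121 (1 higher in males), so that both overlapped. The 5 erythroid markers tested summed to 243.5 to 342.8 in knockout against 209.99 to 242.24 in wild type, where Alas2 fell in males (-1.47) and rose in females (1.60), and the 4 skeletal muscle markers to 1.51 to 1.95 against 1.26 to 1.46, with 0 past the threshold in either sex (0 at an unadjusted p under 0.05). The lists of neutrophils, T and NK cells, cholangiocytes, adipocytes and pancreatic acinar cells overlapped between the genotypes. The 15 hepatocyte markers summed to 6648 to 7474 in knockout against 6075 to 6439 in wild type, with 2 higher and 1 lower in each sex. Their part in the values of Pkm, Hk1 and the genes that fell was not tested.

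The pyruvate dehydrogenase kinases Pdk1 and Pdk2, which hold pyruvate back from the citric acid cycle, gave -0.23 ± 0.16 and -0.46 ± 0.24 in males and -0.39 ± 0.16 and -0.04 ± 0.24 in females. None of the 4 differences passed. Of the 4 Pdk1 probes, 2 that were not used had the opposite sign in males (0.21 and 0.19).

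Among the regulators 1 of 4 passed, in females. Foxo1, the transcription factor through which insulin restrains glucose production, read 3.60 and 3.51 in male wild type, 3.42 and 3.27 in male knockout, 3.63 and 3.45 in female wild type and 2.97 and 2.97 in female knockout. The female difference was -0.57 ± 0.11 (1.48-fold, adjusted p = 0.0438), and the male one, -0.21 ± 0.11, did not pass (adjusted p = 0.296). The female call was lost without any 1 of the 8 arrays (0.0635 to 0.177), although a second probe gave a like value of -0.72.

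Irs2, the insulin receptor substrate whose RNA rises in fasting liver, read 2.09 and 1.99 in male wild type, 3.14 and 3.41 in male knockout, 3.11 and 0.35 in female wild type and 3.86 and 4.53 in female knockout. Each knockout array lay above the wild-type arrays of its sex, and the 2 female wild-type arrays stood 2.76 apart. The differences, 1.23 ± 0.82 in males (adjusted p = 0.393) and 2.46 ± 0.82 in females (adjusted p = 0.138), did not pass. The female difference depended on which wild-type array was kept. Without female wild-type replicate 1 it was 3.84. Without replicate 2 the wild-type value left was 3.11, beside 3.86 and 4.53 in knockout. The male difference was 1.23 in both fits.

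Irs1, the other insulin receptor substrate, read 1.97 and 1.58 in male wild type, 1.25 and 1.61 in male knockout, 1.98 and 1.53 in female wild type and 1.28 and 1.98 in female knockout, and the groups overlapped (-0.34 ± 0.29, adjusted p = 0.508, and -0.13 ± 0.29, adjusted p = 0.818). Ppargc1a, the coactivator PGC-1alpha of the gluconeogenic programme, read 0.63 and 0.53 in male wild type, 0.12 and 0.08 in male knockout, 1.84 and 0.59 in female wild type and 0.32 and 0.20 in female knockout. All knockout arrays lay below all wild-type arrays. The differences of -0.48 ± 0.37 (adjusted p = 0.458) and -0.95 ± 0.37 (adjusted p = 0.183) did not pass. Ppargc1a passed in males without either female wild-type array (0.0421) and in females without female wild-type replicate 2 (-1.58, adjusted p = 0.00763).

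**Figure D4:**
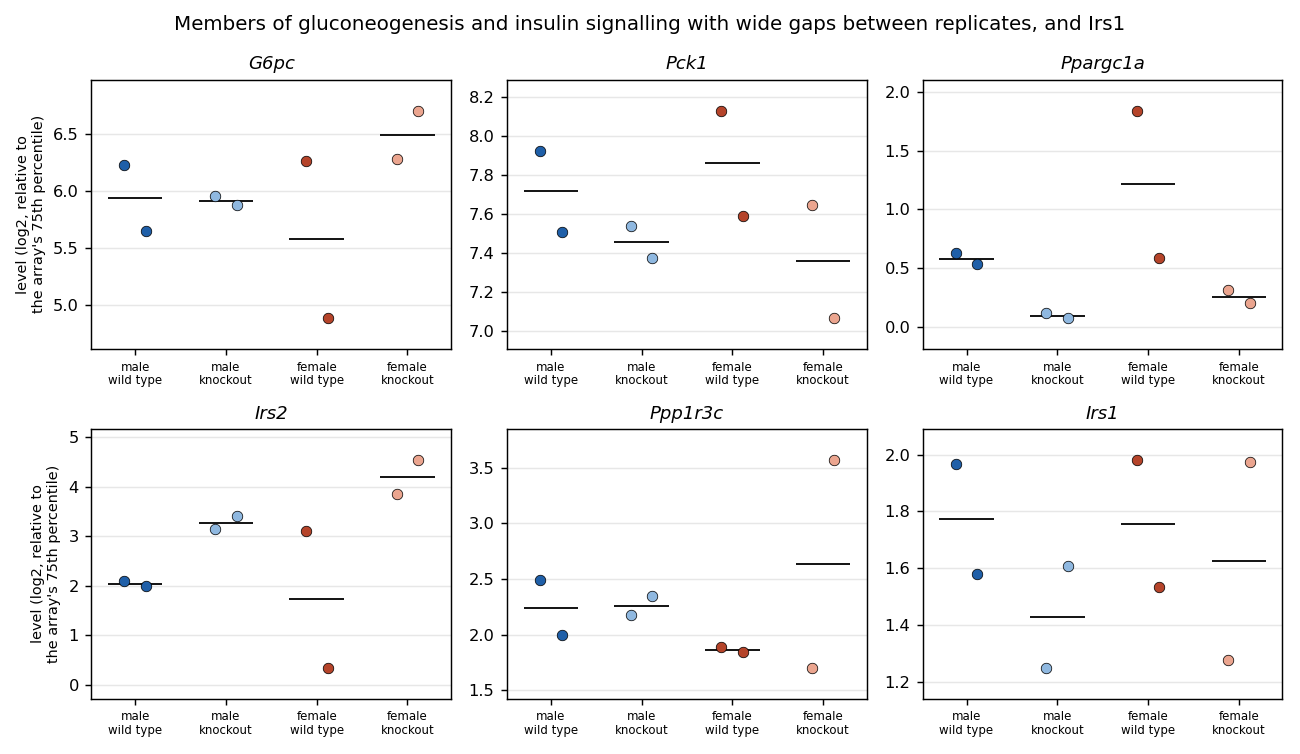
Levels on each of the 8 arrays, as log2 relative to the array's 75th percentile, for 5 genes with a wide gap between replicates in at least 1 group or of the fasting response, and for Irs1, by group with the group mean as a line. The 2 female wild-type arrays stand 2.76 apart for Irs2, 1.38 for G6pc and 1.25 for Ppargc1a, and the 2 female knockout arrays stand 1.86 apart for Ppp1r3c.

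These wide gaps fell in the female groups. Of the 42 genes, Irs2, Pfkfb3, G6pc and Ppargc1a differed by more than 1 between the female wild-type arrays, and Hk2 and Ppp1r3c between the female knockout arrays; 0 did so in either male group. Over all genes tested 4.77% had such a gap in female wild type, 2.77% in female knockout, 2.41% in male knockout and 3.70% in male wild type. Replicate 1 of female wild type was the higher one for Irs2, G6pc and Ppargc1a and the lower one for Pfkfb3.

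The comparison that the series is named for, male against female, found 0 of the 42 genes past the threshold in wild type (6 at an unadjusted p under 0.05), where 0.911% of all genes passed. In knockout 0 of 42 passed (3 at an unadjusted p under 0.05), where 0.0791% of all genes did. Pfkfb1 had the largest sex difference with a small error: male minus female was 0.95 ± 0.25 in wild type (adjusted p = 0.144) and 0.82 ± 0.25 in knockout (adjusted p = 0.692), and a second probe gave 0.65 and 0.57. With normexp it passed in wild type (0.99, adjusted p = 0.0416). Pfkfb3 was 1.36 ± 0.47 higher in wild-type males (adjusted p = 0.225) and 0.23 ± 0.47 in knockout males (adjusted p = 0.983). Without female wild-type replicate 2 its wild-type sex difference was 2.15 (adjusted p = 0.00856).

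The 95% interval of the wild-type sex difference excluded 0 for 6 of the 42 genes, with males higher for Pfkfb1, Pfkfb3, Slc2a1 and Pygl and females higher for Hk1 and Pkm. For Hk1 the probe used gave -0.44 and its second, dimmer probe gave 0.83, so the direction of its sex difference is not settled. For other genes it was wide, as for G6pc (interval -0.75 to 1.47) and Ppp1r3c (interval -0.99 to 1.75), or narrow. Male minus female in wild type was 0.03 (95% interval -0.34 to 0.41) for Slc37a4, -0.07 (interval -0.32 to 0.18) for Pcx, -0.01 (interval -0.27 to 0.25) for Gpi1 and 0.01 (interval -0.27 to 0.29) for Foxo1. The interaction passed for 0 of 42 (2 at an unadjusted p under 0.05), where 0.196% of all genes passed. For Pfkfb3 it was -1.13 ± 0.67 (adjusted p = 0.724), and -1.92 (adjusted p = 0.0477) without female wild-type replicate 2.

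**Figure D5:**
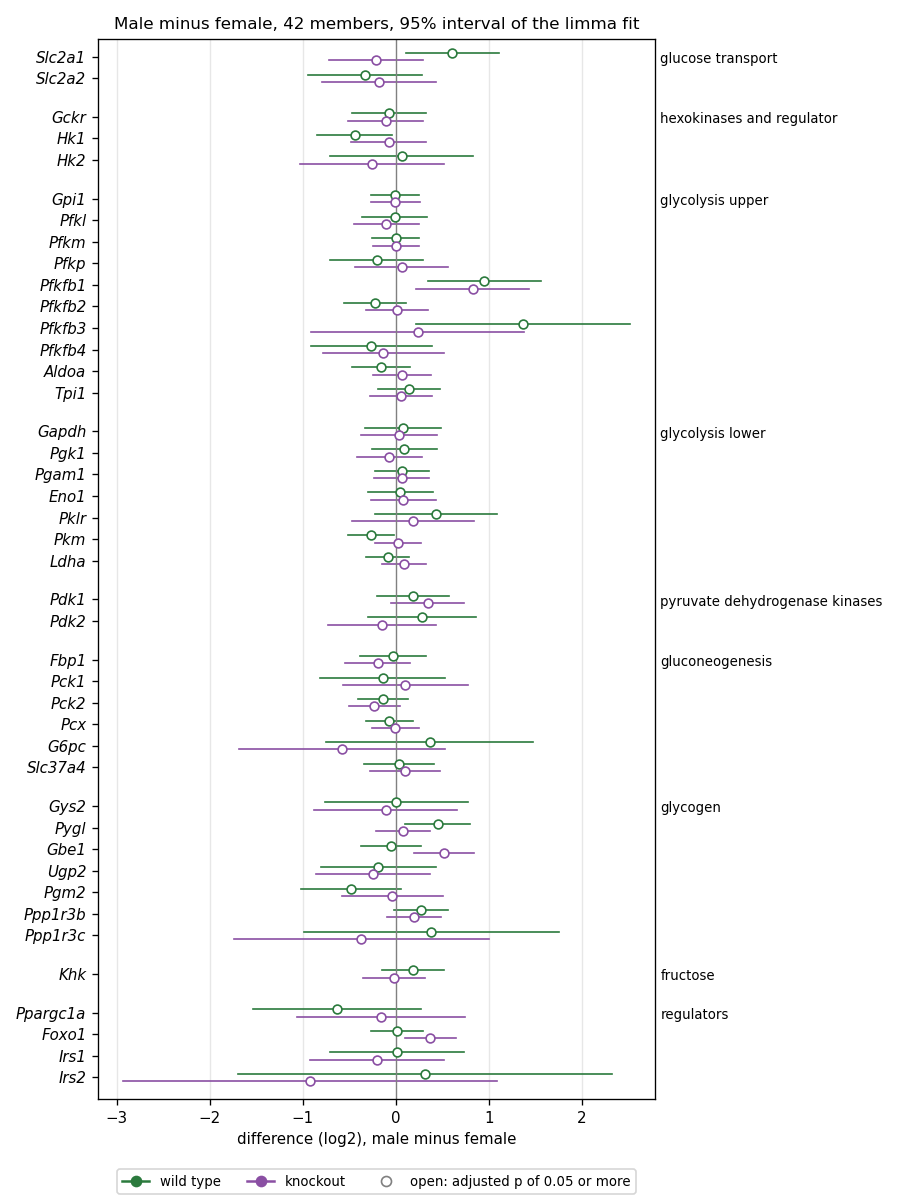
Male minus female on the log2 scale for the 42 genes, ordered by branch of the pathway, with the 95% interval of the limma fit, in wild type and in knockout. All points are open, since none passed the adjusted threshold, and Pfkfb1 is the one gene whose intervals exclude 0 on the male side in both genotypes.

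Other genes of the same and neighbouring pathways, listed apart from the 42, moved in both directions. The counts of each list below stand beside the share of all genes tested that passed. In males that was 10.6%, with 6.08% higher and 4.52% lower. In females it was 5.88%, with 3.5% higher and 2.39% lower. Of 14 other glycolytic genes 2 rose in males, the testis-type dehydrogenase Gapdhs (1.44 ± 0.29, adjusted p = 0.0331) and the bisphosphoglycerate mutase Bpgm (0.72 ± 0.17, adjusted p = 0.0499), and Gapdhs alone rose in females (2.57 ± 0.29, adjusted p = 0.00899). Of 21 other glycogen genes 0 passed in males by limma (3 at an unadjusted p under 0.05).

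Of 16 genes of pyruvate handling 3 rose and 4 fell in males, and 0 rose and 3 fell in females. The mitochondrial pyruvate carrier subunits Mpc1 (0.75) and Mpc2 (0.46) and the dehydrogenase phosphatase Pdp1 (2.10) rose in males. The alanine aminotransferase Gpt2 (-1.13 in males and -0.89 in females) and the dehydrogenase subunit Pdhb (-0.74 and -0.70) fell in both sexes, Pdp2 (-0.74) and Pdhx (-0.44) in males, and Dlat (-0.76), which encodes the acetyltransferase of that complex, in females.

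Of 11 genes of other sugar transport and of fructose and galactose use, 3 rose in both sexes. They were Aldh1b1, an aldehyde dehydrogenase (1.76 in males and 1.84 in females), Akr1b3, the aldose reductase that opens the route from glucose to fructose (1.04 and 0.92), and the galactokinase Galk1 (0.79 and 0.82). Slc2a5, the fructose transporter GLUT5, fell in males (-2.43 ± 0.44, adjusted p = 0.0233). Of 8 pentose phosphate genes 1 rose in both sexes, Pgd (0.88 and 0.74).

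Of 27 insulin and glucagon signalling genes 3 rose and 1 fell in males and 1 rose and 1 fell in females. Prkaca, the catalytic subunit of protein kinase A, rose in both (0.71 and 0.61), Cebpb, a transcription factor of the fasting response, fell in both (-1.10 and -1.52), and Akt2 (0.49) and Crebbp (1.86) rose in males. Median differences over these lists lay between -0.24 and 0.03 in males and between -0.23 and 0.19 in females.

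Among genes that follow feeding, fasting or the hour, the few induced by fasting or of the clock that passed were lower in knockout. Of all genes tested 10.6% passed in males and 5.88% in females. Differences were above 0 for 6 of the 14 genes induced by fasting in males and 5 in females. For the 17 clock genes these counts were 5 and 7, so the lists as a whole had no single direction. The median difference in males and in females was -0.09 and -0.26 over 14 genes induced by fasting, -0.40 and -0.35 over 14 genes induced by carbohydrate or insulin, -0.43 and -0.40 over 17 clock genes and 0.02 and -0.03 over 11 hypoxia genes. Of the genes induced by fasting 2 fell in males and 3 in females, Lpin1 (-2.01 and -2.72) and Fgf1 (-0.70 and -0.96) in both and Acot1 (-2.09) in females. Of those induced by carbohydrate or insulin 1 rose and 2 fell in males, and 1 rose and 3 fell in females. Pnpla3 (3.94 and 2.40, well above background on 1 of 2 male wild-type arrays) rose and Scd1 (-2.41 and -2.24) fell in both sexes, Mlxipl, which encodes the carbohydrate response factor ChREBP, fell in males (-1.02 ± 0.10, adjusted p = 0.00381), and Me1 (-0.93) and Acaca (-0.80) fell in females. Of the clock genes Hlf fell in both sexes (-0.98 and -0.99), as did Ciart, which was not well above background on any knockout array (at least 1.40-fold and at least 5.48-fold), and of the hypoxia genes Hmox1 (1.304 and 0.84) and Hif1a (0.73 and 0.59) rose in both. The part of feeding state, hour or these genes in the values of the 42 was not tested.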

How the data were processed

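Liver RNA (Trizol, Cy3) was hybridised per the labels' protocols. The deposited intensity values were made by Agilent's Feature Extraction software, version 11.5.1.1 per the file headers and 9.1.3.1 per the submitters' processing notes. The authors' deposited value table holds log2 values, which differed from log2 processed signals by a constant for each array (6.99 to 7.30, within 0.01 for 100% of probes), with no centring per gene.

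Control spots and spots marked as outliers (55 to 139 an array, 2 of them in probes of the 42 genes) were left out, spots of 1 probe averaged (56605 probes), and each array's 75th percentile of log2 signal subtracted. RefSeq names (GRCm38.p6) matched 32994 probes. Probes that the scanner's software scored well above background on each array of 1 group or more were kept, and the brightest kept probe stood for its gene (16 of the 42 had several). Where the lower group had no array above background, its values were raised to the lowest signal well above background of each array, and the fold reads "at least". In R 4.3.3, limma 3.58.1 took all arrays with 4 group means (4 residual and 2.07 prior degrees of freedom), with Benjamini-Hochberg adjustment over 26551 at 0.05. The scripts were tested on simulated data for the male comparison. Of genes given a change of 1 log2 unit 41% were recovered, and of those given 2 units 74%, with 9 calls among unchanged genes. The spread set in the simulation is not given here. A difference that did not pass is thus not shown to be absent. Python 3.11.15 (pandas 2.3.3, numpy 2.4.6, matplotlib 3.10.9) searched promoters and drew plots.

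The genes, lists, tests and alternatives were chosen with earlier results of these arrays known. All 42 genes are accounted for; levels on every array are given for those past the threshold and for Pck1, G6pc, Fbp1, Pcx, Slc2a2, Pklr, Gckr, Pfkfb1, Gys2, Ppargc1a, Irs1 and Irs2 whatever their result, and other genes by ranges and counts. Slc2a1, Ppp1r3c and Hk1 are described more fully because of their values. Normexp used the median spot signal, since the files hold no mean. A comparison of protein sequences was not run. Deviations of same-numbered replicates were hardly correlated (-0.00 to 0.10), so the number was not used as a block in the main fit. Several clock genes did deviate together. Replicate 1 minus replicate 2 in female and male knockout was 4.15 and 2.83 for Dbp and 1.51 and 1.06 for Per3. It was 1.14 and 1.30 for Nr1d1, 1.13 and 0.84 for Tef, -1.25 and -0.62 for Nfil3 and -1.17 and -0.87 for Cry1. In female and male wild type it was -0.63 and -1.81 for Dbp, 1.25 and 1.15 for Arntl and -1.11 and -1.28 for Ciart. Other clock genes had opposite signs there, among them Nr1d1 (0.71 and -0.17) and Per1 (-0.30 and 0.86). Npas2 (-0.56 and 0.30) and Cry2 (0.23 and -0.20) had opposite signs in the 2 knockout groups. The female result for other glycogen genes is not reported here.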

Additional observations from a re-analysis of the deposited data

How the results depend on the processing

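With 2 arrays a group, limits come from single arrays more than from scaling. The counts of genes past the threshold ranged from 0 to 12 in males and from 2 to 7 in females over the 8 fits that left out 1 array each, and from 0 to 2, 0 to 0 and 0 to 1 for the sex difference in wild type, in knockout and the interaction. In males 13 of the 42 passed with normexp background correction (2 higher and 11 lower) and 13 with limma's trend and robust options, and 4 without the filter on dim probes; from 7 to 10 passed in the other settings run on all arrays, beside 8. In females 12 passed with normexp, 2 without the filter, 0 in a fit of the 2 female groups alone (18 at an unadjusted p under 0.05 in the fit of all groups) and 4 with a replicate block; from 7 to 10 passed in the others, beside 7. Unfiltered, 45616 were tested, and 1226 of them passed in males and 524 in females. Over all 26551 tested in the main fit, 2814 passed in males and 1562 in females. With normexp these counts were 3171 and 2595, and with the trend and robust options 3477 and 2521. In the fit of the 2 female groups alone 363 of the 26551 passed. For the sex difference in wild type normexp gave 1, Pfkfb1. The replicate block ended the calls of Pfkfb3 (0.051), Ppp1r3b (0.062) and Foxo1 (0.0505) in females and of Pygl in males (0.0523), and no other. Quantile normalization and centring on the median kept all 15 calls in their direction; on the deposited values 14 held. None of the 15 differences changed sign in any setting run. Where a count moved, the cause was not tested, except that fewer arrays or more probes tested change the fit itself. By the scanner's score for the probes used, signal over background limited 1 gene of the 42, Pgm2. Hk2 was scored well above background on every array, but its processed signal of 11.2 to 23.4 overlapped the 7.0 to 13.4 of Pgm2.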

Other observations

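The gap between the 2 female wild-type arrays in Irs2, G6pc, Ppargc1a and Pfkfb3 was accompanied by gaps in genes outside the 42 that are known to follow feeding, hormones or the hour. Replicate 1 minus replicate 2 was 4.21 for Igfbp1, an insulin-repressed secreted protein, 1.25 for Pdk4, which spares glucose in fasting, and 0.75 for Angptl4, an inhibitor of lipoprotein lipase. It was -1.75 for Fgf21, a hormone of fasting liver, -0.88 for Srebf1, the insulin-responsive regulator of lipid synthesis, -1.49 for Thrsp and -1.23 for Pnpla3, both induced by carbohydrate, -2.09 for the clock gene Per2 and 1.25 for the clock gene Arntl. Gaps of like or larger size lay in other groups: 4.15 in female knockout, 2.83 in male knockout and -1.81 in male wild type for the clock gene Dbp, 1.15 in male wild type and -1.001 in female knockout for Arntl, 1.51 in female knockout for Per3 and -1.33 in female knockout for Pdk4, so they were not particular to female wild type. These genes were looked at after the gaps had been seen, and the labels say nothing of feeding or hour.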
